A study of Homo sapiens with 8 samples.

Results

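The junction genes described here are 48 of the 60649 gene identifiers in the expression tables: every gene the tables name CLDN, DSC, DSG, PKP, GJB or TJP followed by a number, with DSP, JUP and OCLN. They comprise 24 claudins, 7 desmosomal cadherins, 6 desmosomal plaque genes, 7 beta connexins and 4 genes of occludin and the ZO (zonula occludens) proteins, and all 48 are protein-coding. The rule reads gene names only. RNA was sequenced from HCT116, a human colorectal carcinoma cell line, and from UF1hypo, a derivative in which an exon of 1 UHRF1 allele was replaced by a selection cassette that Cre recombinase later excised, leaving a UHRF1+/- line. UF1hypo is 1 clone, so lower UHRF1 and other properties of that clone cannot be told apart. Each line carried a stable lentiviral short hairpin selected with puromycin, either a scrambled control (shScr) or a hairpin against UHRF1 (shUHRF1), which gave 4 groups of 2 libraries, named by line and hairpin. Other hypomorphic lines of the study were not analysed here.

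Claudins are membrane proteins whose combination sets which ions and solutes pass between epithelial cells at the tight junction, and ZO proteins anchor them to actin. Desmosomes join keratin filaments of neighbouring cells: desmogleins and desmocollins, which are cadherins, meet between the cells, and plakoglobin, plakophilins and desmoplakin form the plaque inside. Connexins assemble into gap junction channels that let small molecules pass from cell to cell. UHRF1 recruits DNMT1 to newly replicated DNA, where DNMT1 restores methylation of CpG dinucleotides. In the promoter sequences each CG is in capitals.

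Promoter windows of 300 bases, 250 before and 50 after an annotated start, were taken from RefSeq (GRCh38.p14) and are written 5′ to 3′ on the strand of the gene. Of the 48 members 35 matched a window. The motif searched was CG, which reads the same on both strands. The 51 windows of members held between 0 and 37 CG, with a median of 13, and the median of all 35116 windows was 14. DNA methylation was not analysed here, and the CG count describes only the letters in the window. CLDN6, which rose on knockdown in UF1hypo, and CLDN4, the claudin with the highest mean TPM over the 8 libraries, have the windows at chr16:3018134-3018433 (minus strand) and chr7:73830746-73831045 (plus strand). CLDN6 holds 21 CG, a count reached by 39.5% of all windows, and CLDN4 holds 5, a count reached by 70.4%.
CLDN6: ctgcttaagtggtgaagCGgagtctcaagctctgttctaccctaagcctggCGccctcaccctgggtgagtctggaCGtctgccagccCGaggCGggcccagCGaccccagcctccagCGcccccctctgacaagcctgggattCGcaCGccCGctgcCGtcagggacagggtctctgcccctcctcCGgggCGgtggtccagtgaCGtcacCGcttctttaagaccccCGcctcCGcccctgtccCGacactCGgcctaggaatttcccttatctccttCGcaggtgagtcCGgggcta
CLDN4: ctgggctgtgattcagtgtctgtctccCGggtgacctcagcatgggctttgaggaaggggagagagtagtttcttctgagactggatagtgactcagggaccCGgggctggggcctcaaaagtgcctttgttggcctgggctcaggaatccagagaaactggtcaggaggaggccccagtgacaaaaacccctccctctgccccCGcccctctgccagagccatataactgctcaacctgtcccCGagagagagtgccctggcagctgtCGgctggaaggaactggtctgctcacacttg
DSC3 and DSC2, both lower in UF1hypo than in HCT116, and GJB2, lower on knockdown in UF1hypo, were added after their values were seen. Their windows are chr18:31042693-31042992 for DSC3, chr18:31102372-31102671 for the upstream of 2 DSC2 starts and chr13:20192889-20193188 for GJB2, all on the minus strand. DSC3 holds 25 CG (reached by 32.0% of windows), DSC2 15 (48.9%) and GJB2 33 (17.2%). The window of the other DSC2 start, chr18:31101211-31101510, holds 22 (37.7%) and is not printed.
DSC3: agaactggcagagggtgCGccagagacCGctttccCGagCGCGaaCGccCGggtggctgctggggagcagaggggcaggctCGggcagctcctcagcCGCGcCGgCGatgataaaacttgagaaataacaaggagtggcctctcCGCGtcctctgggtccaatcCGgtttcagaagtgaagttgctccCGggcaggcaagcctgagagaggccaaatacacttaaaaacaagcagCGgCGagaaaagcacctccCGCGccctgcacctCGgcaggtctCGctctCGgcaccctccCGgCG
DSC2: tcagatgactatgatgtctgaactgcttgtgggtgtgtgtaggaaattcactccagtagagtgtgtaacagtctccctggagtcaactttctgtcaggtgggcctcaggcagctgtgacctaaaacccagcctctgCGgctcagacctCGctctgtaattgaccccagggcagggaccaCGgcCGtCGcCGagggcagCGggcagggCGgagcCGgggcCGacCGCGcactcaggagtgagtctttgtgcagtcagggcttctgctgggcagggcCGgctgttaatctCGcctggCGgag
GJB2: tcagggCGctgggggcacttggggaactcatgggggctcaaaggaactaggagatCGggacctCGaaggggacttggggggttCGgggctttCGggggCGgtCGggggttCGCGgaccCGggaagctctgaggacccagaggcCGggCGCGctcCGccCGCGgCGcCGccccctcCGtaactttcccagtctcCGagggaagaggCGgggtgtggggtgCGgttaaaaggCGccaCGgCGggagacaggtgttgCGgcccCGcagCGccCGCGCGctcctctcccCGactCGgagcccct
The CLDN6 window ends 11 bases before the start of TNFRSF12A, a TNF receptor family gene on the opposite strand, whose level is given with CLDN6 below.

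Levels are given as TPM, transcript abundance scaled to gene length and to the same total in each library. Aligned sequence came to between 5.42 and 7.83 gigabases per library. In HCT116, UHRF1 itself had a TPM of 87.5 and 98.4 with the scrambled hairpin and 31.7 and 32.7 with its own. In UF1hypo these were 47.3 and 50.6 with shScr, and 34.1 and 21.1 with shUHRF1. The hairpin groups did not overlap in either line, and the log2 fold change was -1.50 in HCT116 (limma adjusted p = 0.0564) and -0.84 in UF1hypo (limma adjusted p = 0.0406), neither past the thresholds of a call defined below. The epithelial markers EPCAM, KRT8, KRT18, KRT19 and CDH1 were detected in every library. Among intestinal markers, CDX2 had a TPM of 12.1 to 18.3 over the 8 libraries, while VIL1 and CDX1 stayed below 0.5. The libraries of UF1hypo shUHRF1 differed from each other along the GC content of transcripts (Spearman's rho 0.814 across 13781 genes, against between -0.508 and -0.0417 in the other groups; genes are not independent replicates), and their Pearson correlation was 0.956, against 0.991 to 0.992 in the other groups. The part of this split in the values below was not tested beyond the fits without either library and with a GC correction.

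Of the 48 junction genes, 27 exceeded a TPM of 1 in at least 1 library and 21 never did. Among the latter, 7 were listed at 0 in all 8 libraries: CLDN8, CLDN10, CLDN16, CLDN17, CLDN22, CLDN25 and DSC1. A set of 15 genes exceeded a TPM of 10 in every library, and the highest means over the 8 libraries were those of CLDN4, JUP, CLDN7 and PKP3. The desmogleins of stratified epithelia, DSG1, DSG3 and DSG4, stayed below 0.3, as did CLDN1 and CLDN18. DSC3, a desmocollin also of stratified epithelia, was higher in HCT116, at 4.52 and 4.79 in the shScr libraries. PKP1, the plakophilin of stratified epithelia, reached at most 0.441, in UF1hypo shUHRF1.

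**Figure D1:**
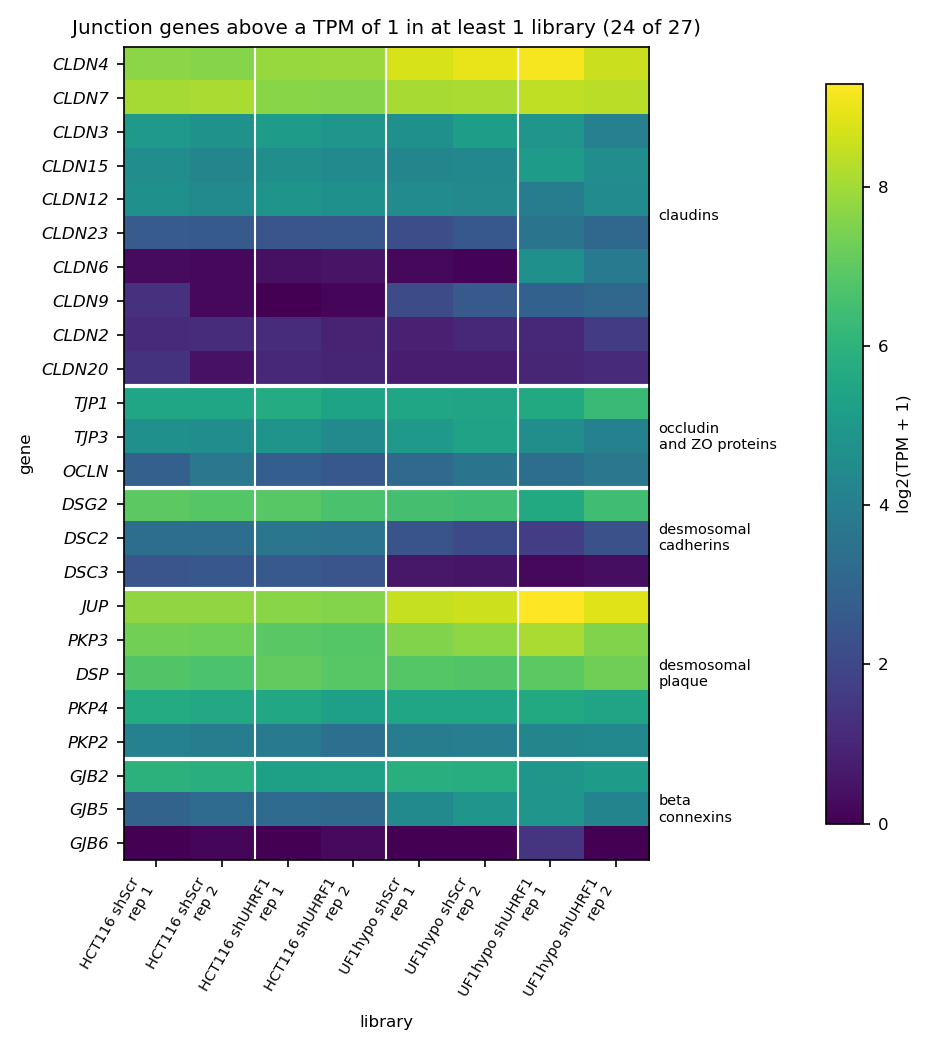
Level of 24 of the 27 junction genes above a TPM of 1 in at least 1 library, as log2(TPM + 1) by colour, with genes in rows by family and the 8 libraries in columns. CLDN6 is bright in the 2 UF1hypo shUHRF1 libraries and dark in the other 6, and DSC3 is brighter in the 4 HCT116 libraries than in the 4 UF1hypo libraries.

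Differences between groups were tested by limma on log2(TPM + 1), and a gene was called when its Benjamini-Hochberg adjusted p was below 0.05 and its log2 fold change exceeded 1 in either direction. All folds below are on that scale, which understates the change of low genes. Nothing in the labels says that the 2 libraries of a group came from separate cultures, so the p-values measure only the spread between these libraries. An exact permutation test of 2 libraries against 2 cannot give a p below 0.33.

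UHRF1 knockdown in UF1hypo raised CLDN6 from near 0 to a TPM of 13.7 and 24.1 and left the other 25 members tested short of a call. GJB2 was lower, at less than the fold threshold. Of 26 members tested, 1 was called higher and 0 lower. Of all 13620 genes tested, 7.39% were called higher and 1.14% lower. At any fold, 3 members had an adjusted p below 0.05 (CLDN6, CLDN23 and GJB2), where 13.3% of all genes did. The shScr and shUHRF1 libraries did not overlap for 12 of the 26, of which 10 were higher and 2 lower, and for 48.9% of all genes. The median log2 fold change was 0.17 over the members and 0.04 over all genes.

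CLDN6 (ENSG00000184697.7, chromosome 16, 3014712 to 3020071, minus strand) encodes a claudin of embryonic and pluripotent epithelia that most adult tissues lack. Its TPM was 0.137 and 0.0745 in the 2 UF1hypo shScr libraries, against 24.1 and 13.7 after knockdown. In HCT116 it was 0.211 and 0.163 with shScr and 0.324 and 0.397 with shUHRF1. Only the 2 UF1hypo shUHRF1 libraries exceeded a TPM of 1, and they did not overlap any of the other 6. The log2 fold change in UF1hypo was 4.12 ± 0.266 (SE, n = 2 libraries a group; limma adjusted p = 4.32e-05), and it stayed called without either UF1hypo shUHRF1 library (3.73 to 4.51 over the fits that leave out 1 library). In bulk RNA, more cells with CLDN6 mRNA and more of it per cell cannot be told apart.

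CLDN6 was also the 1 member of 27 whose knockdown effect differed between the lines at the threshold, by 3.92 ± 0.376 on the log2 scale (UF1hypo minus HCT116; limma adjusted p = 0.00102), against 5.09% of all genes called for that difference. In HCT116 it passed the TPM filter in neither group and was not tested there. TNFRSF12A, which shares 40 of the 1739 exonic bases of CLDN6 on the opposite strand, had a TPM of 323 and 358 in the 2 UF1hypo shScr libraries, against 605 and 472 after knockdown. That change was not called (log2 fold change 0.65, limma adjusted p = 0.0265). In HCT116 it had 246 and 252 with the scrambled hairpin and 190 and 182 after knockdown, also not called (limma adjusted p = 0.603), while its effects in UF1hypo and HCT116 differed by 1.07 on the log2 scale, which passed the threshold (limma adjusted p = 0.0282). Whether the library kept strand is not given in the sources used here, and the part of TNFRSF12A reads in the CLDN6 values was not tested.

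CLDN9 (chromosome 16, 3012923 to 3014505) lies 206 bases from CLDN6 on the other strand and encodes a close relative known from the inner ear. Its TPM was 3.44 and 5.12 in the 2 UF1hypo shScr libraries, against 6.35 and 7.66 after knockdown. The groups did not overlap, but the log2 fold change of 0.61 ± 0.362 was not called (limma adjusted p = 0.316). In HCT116 its TPM came to 1.52 and 0.135 under shScr and 0 and 0.116 with shUHRF1.

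CLDN23 had a TPM of 3.70 and 4.88 in the 2 UF1hypo shScr libraries, against 10.9 and 7.66 after knockdown. The groups did not overlap, and the log2 fold change was 0.95 ± 0.230 (limma adjusted p = 0.0301), just under the fold threshold. Without UF1hypo shUHRF1 replicate 2 it was called, at 1.18 (limma adjusted p = 0.00529), and so was its difference between the lines, which was 1.13 in the full fit (limma adjusted p = 0.0969) and 1.36 without that library (limma adjusted p = 0.0130). In HCT116 the TPM came to 5.36 and 5.14 under shScr and 4.46 and 4.55 with shUHRF1, which is lower in both knockdown libraries, by 0.18 on the log2 scale (limma adjusted p = 1.00).

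CLDN7, an abundant claudin of the colonic and other simple epithelia that also lies along the lateral membrane, had a TPM of 272 and 273 in the 2 UF1hypo shScr libraries, against 336 and 321 after knockdown. In HCT116 it was 259 and 278 with shScr and 197 and 193 with shUHRF1. Both knockdown libraries were higher in UF1hypo and both lower in HCT116. The log2 fold change was 0.27 ± 0.124 (limma adjusted p = 0.202) in UF1hypo and -0.46 ± 0.128 (limma adjusted p = 0.363) in HCT116, and the difference between the lines was 0.73 (limma adjusted p = 0.0525). None of these was called. ELP5 overlaps 38 bases of CLDN7 on the opposite strand.

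GJB2, which encodes Cx26, a channel widely expressed in epithelia and the inner ear, was lower after knockdown. Its TPM was 56.5 and 54.9 in the 2 UF1hypo shScr libraries, against 29.5 and 32.9 after knockdown. In HCT116 it was 61.6 and 57.5 with shScr and 38.3 and 38.9 with shUHRF1. All 4 knockdown libraries lay below all 4 shScr libraries. The log2 fold change was -0.82 ± 0.150 in UF1hypo (limma adjusted p = 0.00877), under the fold threshold, and -0.61 ± 0.154 in HCT116 (limma adjusted p = 0.291). The difference between the lines was -0.21, with a 95% confidence interval of -0.69 to 0.28 (limma adjusted p = 0.687).

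Plakoglobin (JUP), which links desmosomal cadherins to desmoplakin and also binds classical cadherins, had a TPM of 359 and 384 in the 2 UF1hypo shScr libraries, against 625 and 459 after knockdown. The groups did not overlap, and the log2 fold change was 0.53 ± 0.164 (limma adjusted p = 0.0708). TJP3 (ZO-3), a ZO scaffold of epithelial tight junctions, had a TPM of 30.5 and 40.1 in the 2 UF1hypo shScr libraries, against 23.1 and 16.0 after knockdown, with a log2 fold change of -0.83 ± 0.239 (limma adjusted p = 0.0559). Neither was called. TJP3 was called without UF1hypo shUHRF1 replicate 1 (-1.08, limma adjusted p = 0.0231) and with a correction for GC content and length (-1.13, limma adjusted p = 0.000717). APBA3 overlaps 42 bases of TJP3 on the opposite strand. PKP3, the most abundant plakophilin here, had 186 and 210 in the 2 UF1hypo shScr libraries, against 273 and 185 after knockdown, and these groups overlapped.

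Among other claudins, CLDN15, which forms sodium channels in the intestine, had a TPM of 18.0 and 19.4 in UF1hypo shScr and 34.6 and 22.4 with the UHRF1 hairpin, which did not overlap (log2 fold change 0.55, limma adjusted p = 0.166). CLDN3 (24.3 and 36.3, then 27.6 and 15.7) and CLDN12 (21.5 and 20.0, then 13.9 and 21.2) overlapped between the hairpins. CLDN2, a leaky-type cation-pore claudin, and CLDN20 stayed between 0.365 and 2.05 in all 8 libraries.

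Desmoplakin (DSP), which binds keratin filaments, had values of 115 and 109 TPM under shScr and 123 and 154 with shUHRF1 in UF1hypo, and TJP1 (ZO-1) had 43.3 and 42.0 and then 48.6 and 78.3. PKP2 had 14.0 and 14.7 and then 18.2 and 19.3. For all 3 the hairpin groups did not overlap, at log2 fold changes of 0.29, 0.52 and 0.36 (limma adjusted p = 0.271, 0.193 and 0.280). PKP4, at 44.1 and 43.8 and then 49.3 and 42.5, and OCLN, at 8.07 and 11 and then 9.17 and 12.3, overlapped.

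DSG2, the desmoglein of simple epithelia, was the most abundant desmosomal cadherin, with a TPM of 91.9 and 86.7 in the 2 UF1hypo shScr libraries, against 49.5 and 86.8 after knockdown. The groups overlapped, with 1 of the 2 knockdown libraries low, and the log2 fold change was -0.44 ± 0.244 (limma adjusted p = 0.286). GJB6, the Cx30 gene beside GJB2, was above 0 in only 1 UF1hypo library, UF1hypo shUHRF1 replicate 1, at a TPM of 1.63. It was not called (log2 fold change 0.70, limma adjusted p = 0.289), and was called without UF1hypo shUHRF1 replicate 2 (1.39, limma adjusted p = 0.00151), which leaves that 1 library in the group.

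UHRF1 knockdown in HCT116 left every junction gene short of the call. Of 25 members tested, 0 were called by limma, against 0.0708% of all 12704 genes tested, and 3 had an unadjusted p below 0.05 (GJB2 and CLDN7 among them). Under 16 alternative fits the count of calls was 0 each time. In 3 of them 4 members had an adjusted p below 0.05 at smaller folds, GJB2, CLDN7 and PKP3 among them. The main fit shares an estimate of the spread over all 8 libraries. With the HCT116 libraries alone the limma adjusted p was 0.0102 for GJB2, 0.0130 for CLDN7 and 0.0290 for PKP3. That fit called 89 of all 12704 genes and no member. The shScr and shUHRF1 libraries did not overlap for 13 members, 3 higher and 10 lower, and for 49.4% of all genes. The median log2 fold change was -0.05 over the members and -0.03 over all genes. Occludin (OCLN), a tight junction membrane protein outside the claudin family, had 6.27 and 11.7 with shScr and 5.80 and 4.96 with shUHRF1 (log2 fold change -0.59, limma adjusted p = 0.867). PKP3 had 159 and 152 with shScr and 120 and 114 with shUHRF1 (-0.41, limma adjusted p = 0.833), and JUP had 216 and 215 with shScr and 199 and 189 with shUHRF1 (-0.15). In each of these 3 genes both knockdown libraries were the lower ones. DSC2 was among the 3 members whose knockdown libraries were both higher, with CLDN4 and DSP.

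**Figure D2:**
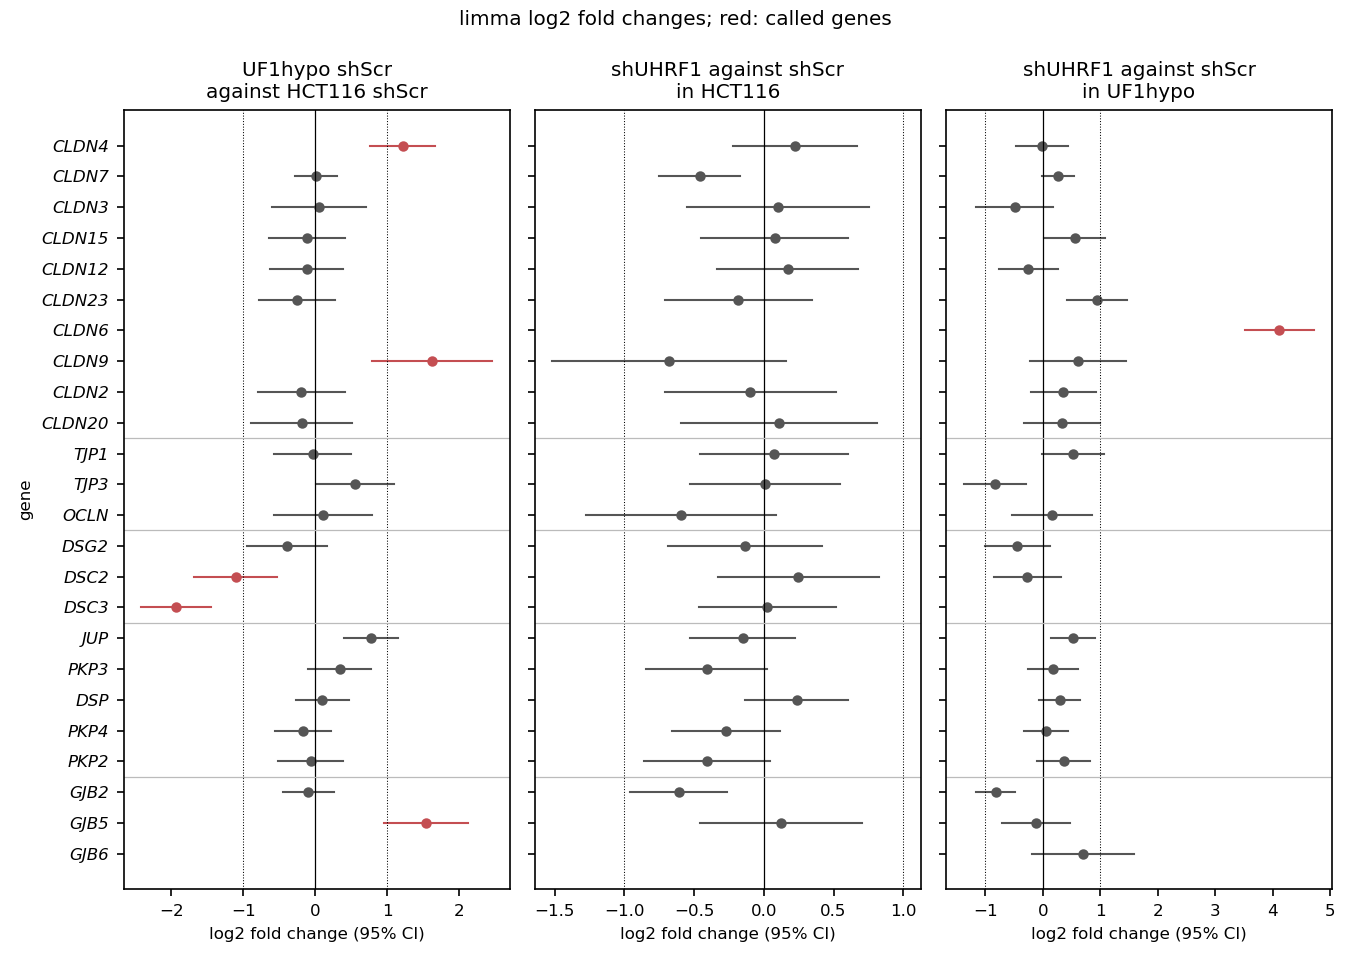
Log2 fold change of 24 junction genes (points) with its 95% confidence interval (lines) in 3 comparisons fitted by limma on log2(TPM + 1), where red marks called genes and dotted lines a fold change of 1 in either direction; horizontal axes differ in range. CLDN6 is the 1 called gene on knockdown in UF1hypo, none is called in HCT116, and 5 of those plotted are called between the shScr groups.

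UF1hypo shScr differed from HCT116 shScr in 6 junction genes, among which CLDN4, CLDN9 and GJB5 were higher and DSC2 and DSC3 lower. This comparison shares its UF1hypo shScr libraries with the knockdown in UF1hypo and its HCT116 shScr libraries with the knockdown in HCT116. Of 25 members tested, 4 were called higher and 2 lower, where 2.59% of all 12856 genes were higher and 0.949% lower. At any fold, 7 had an adjusted p below 0.05 (the 6 and JUP), against 4.78% of all genes. The groups did not overlap for 16 members, 9 higher and 7 lower, and for 66.4% of all genes. The median log2 fold change was 0.02 over the members and -0.05 over all genes.

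CLDN4 (ENSG00000189143.10, chromosome 7, 73799542 to 73832690), which lowers the sodium permeability of tight junctions, had a TPM of 206 and 195 in HCT116 shScr and 427 and 510 in UF1hypo shScr. In the shUHRF1 libraries it was 232 and 236 in HCT116 and 566 and 378 in UF1hypo. All 4 UF1hypo libraries lay above all 4 HCT116 libraries. The log2 fold change between the shScr groups was 1.22 ± 0.196 (limma adjusted p = 0.00965). It fell short of the threshold without HCT116 shScr replicate 1 (limma adjusted p = 0.0902), HCT116 shScr replicate 2 (limma adjusted p = 0.0964) or UF1hypo shScr replicate 2 (limma adjusted p = 0.114), at log2 fold changes of 1.09 to 1.25.

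CLDN9, at 1.52 and 0.135 in HCT116 shScr and 3.44 and 5.12 in UF1hypo shScr, was higher in the latter by 1.62 ± 0.368 on the log2 scale (limma adjusted p = 0.0428). Without HCT116 shScr replicate 1 it was called, at 2.20 on the log2 scale. It was not called without HCT116 shScr replicate 2 (1.05), UF1hypo shScr replicate 1 (1.85) or UF1hypo shScr replicate 2 (1.39). Of the summed claudin TPM, CLDN4 took a mean of 36.5% in HCT116 and 56.9% in UF1hypo with shScr, and 45.6% and 51.5% with shUHRF1. CLDN7 took 49.0% and 33.3% with shScr, and 37.9% and 36.7% with shUHRF1. CLDN3, the neighbour of CLDN4 on chromosome 7, had 30.6 and 26.4 in HCT116 shScr and 24.3 and 36.3 in UF1hypo shScr, which overlapped.

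**Figure D3:**
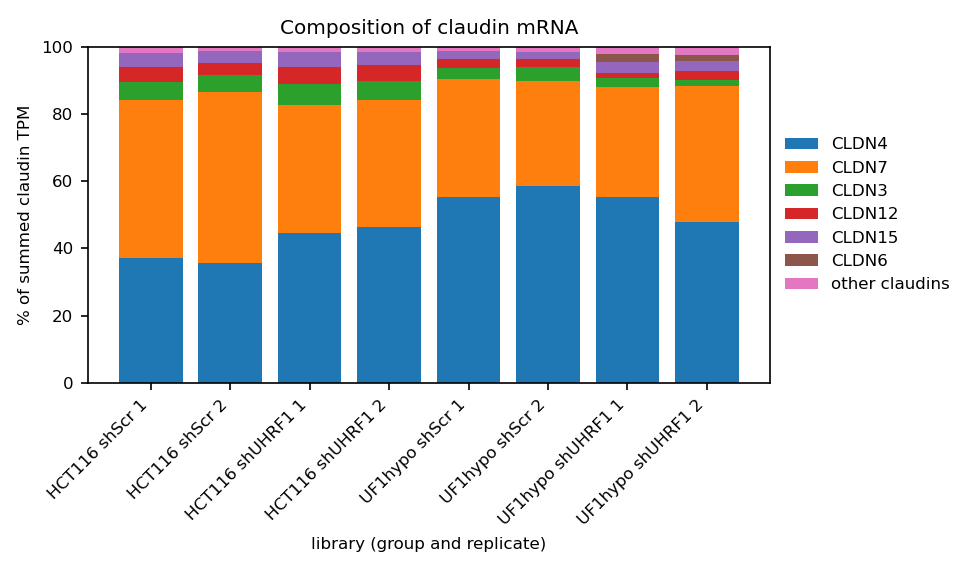
Share of the summed claudin TPM taken by each claudin in each of the 8 libraries, as stacked bars from 0 to 100%. CLDN4 takes 35.7% to 37.2% in HCT116 shScr and 55.3% to 58.6% in UF1hypo shScr, and CLDN6 is a visible band (1.73% to 2.36%) only in UF1hypo shUHRF1.

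The desmocollins DSC3 and DSC2, neighbours in the chromosome 18 cluster of desmosomal cadherins, were lower in UF1hypo shScr. DSC3 (ENSG00000134762.17, 30989365 to 31042815, minus strand), a desmocollin of basal layers of stratified epithelia, had a TPM of 4.52 and 4.79 in HCT116 shScr and 0.515 and 0.455 in UF1hypo shScr. With the UHRF1 hairpin it was 5.0 and 4.52 in HCT116 and 0.142 and 0.279 in UF1hypo. All 4 UF1hypo libraries lay below 1 and all 4 HCT116 libraries above 4. The log2 fold change between the shScr groups was -1.93 ± 0.214 (limma adjusted p = 0.00155), and it was called in each of the 16 alternative fits. In UF1hypo DSC3 did not pass the TPM filter, so knockdown there was not tested.

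DSC2 (ENSG00000134755.18, 31058840 to 31102522, minus strand), the desmocollin of simple epithelia, had a TPM of 9.18 and 9.22 in HCT116 shScr and 4.35 and 3.24 in UF1hypo shScr. With the UHRF1 hairpin it was 11.6 and 10.6 in HCT116 and 2.19 and 3.90 in UF1hypo, and the UF1hypo libraries all lay below the HCT116 ones. Its log2 fold change between the shScr groups was -1.10 ± 0.254 (limma adjusted p = 0.0458). It was called in 6 of 16 alternative fits and in none that left out 1 library, with values of -1.27 to -0.93 (limma adjusted p = 0.145 to 0.341). DSG2 on the same chromosome had a TPM of 122 and 113 in HCT116 shScr, against 91.9 and 86.7 in UF1hypo shScr, a log2 fold change of -0.39 ± 0.244 (limma adjusted p = 0.446).

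GJB5, which encodes the Cx31.1 connexin of the beta family, was higher in UF1hypo shScr. It had a TPM of 6.80 and 8.40 in HCT116 shScr and 20.8 and 27.4 in UF1hypo shScr. With the UHRF1 hairpin it was 8.41 and 8.22 in HCT116 and 27.8 and 17.5 in UF1hypo, so all 4 UF1hypo libraries lay above all 4 HCT116 ones. The log2 fold change between the shScr groups was 1.54 ± 0.256 (limma adjusted p = 0.0109). GJB5 was not called without HCT116 shScr replicate 1 (log2 fold change 1.41), HCT116 shScr replicate 2 (1.68) or UF1hypo shScr replicate 2 (1.35).

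**Figure D4:**
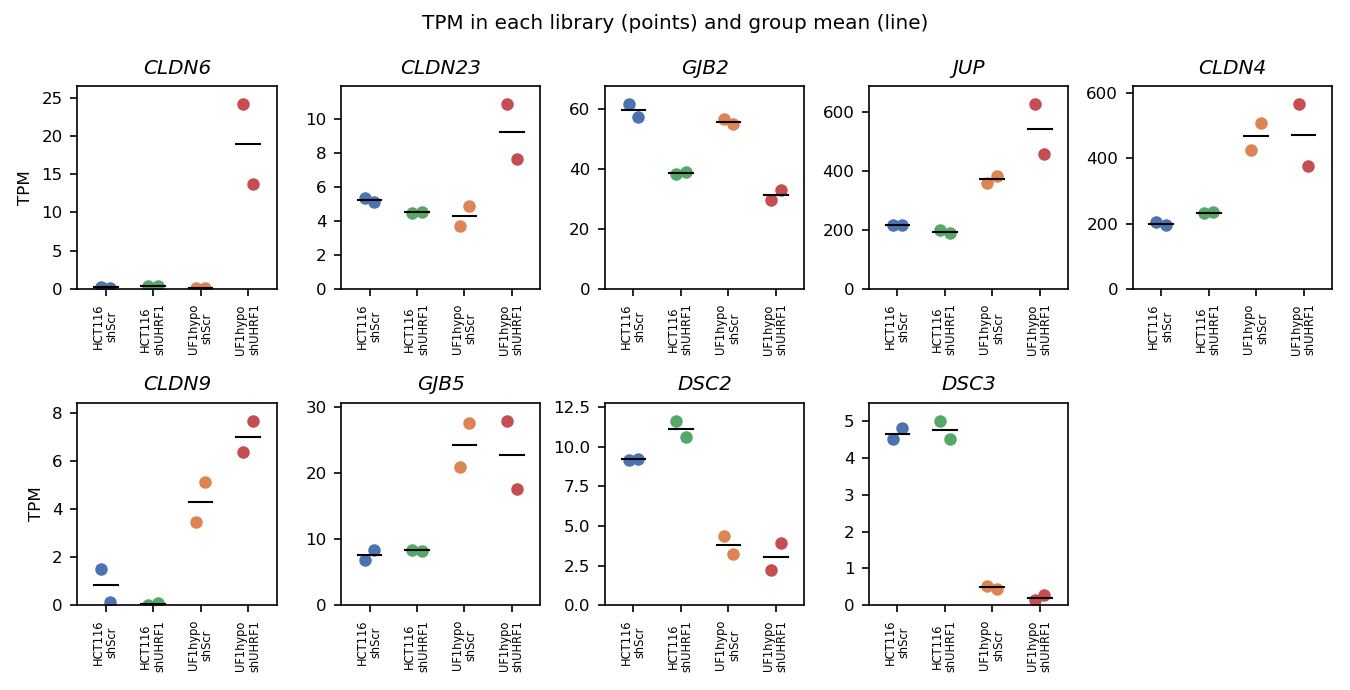
TPM of 9 junction genes in each library (points, linear axis from 0, a separate scale for each gene) with the mean of each group of 2 libraries (lines). CLDN6 stands above 13 only in UF1hypo shUHRF1, GJB2 is lower in both shUHRF1 groups, and CLDN4 and GJB5 are higher and DSC2 and DSC3 lower in all UF1hypo libraries than in all HCT116 libraries.

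JUP had a TPM of 216 and 215 in HCT116 shScr and 359 and 384 in UF1hypo shScr, with a log2 fold change of 0.78 ± 0.165 (limma adjusted p = 0.0336), below the fold threshold. The remaining plaque genes tested, occludin and the ZO proteins were not called, with log2 fold changes between the shScr groups of -0.16 for PKP4, 0.10 for DSP, 0.12 for OCLN, 0.34 for PKP3 and 0.56 for TJP3.

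Summed over the family, claudin TPM came to 552 and 546 under shScr and 520 and 508 with shUHRF1 in HCT116, and 771 and 871 with shScr and 1023 and 791 with shUHRF1 in UF1hypo. Desmosomal cadherins summed to 136 and 127 with shScr and 133 and 113 with shUHRF1 in HCT116, and to 97.0 and 90.4 with shScr and 52.0 and 91.3 with shUHRF1 in UF1hypo. Every UF1hypo library held more claudin TPM and less desmosomal cadherin TPM than every HCT116 library. Beta connexins summed to 116 and 114 in HCT116 shScr and to 74.6 and 73.5 in HCT116 shUHRF1, where GJB2 was lower. In UF1hypo they summed to 154 and 167 with shScr and 144 and 108 with shUHRF1.

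Of 50 other junction genes listed for context, 39 were tested on knockdown in UF1hypo, where 3 were called higher and 0 lower, against 7.39% and 1.14% of all genes. GJA1, which encodes Cx43, had a TPM of 0.21 and 0.181 in the 2 UF1hypo shScr libraries, against 3.05 and 7.96 after knockdown, with a log2 fold change of 2.33 ± 0.338 (limma adjusted p = 0.00304). It was listed at 0 in both HCT116 shScr libraries and at 2.58 and 2.11 in HCT116 shUHRF1, which was not called (limma adjusted p = 0.152). LAMB3, a chain of the hemidesmosomal laminin, rose by 1.03 (limma adjusted p = 0.0184) and GJD3, named after its value was seen, by 1.06 (limma adjusted p = 0.0272).
Between the shScr groups 38 were tested, of which 4 were called higher and 1 lower, against 2.59% and 0.949% of all genes. NECTIN4, an adhesion receptor of adherens junctions, was higher by 2.00 (limma adjusted p = 0.00207) and NECTIN3 lower, by -1.46 (limma adjusted p = 0.0193). ITGB4 (1.45) and COL17A1 (1.25) were also higher. ITGB4 and COL17A1 encode parts of hemidesmosomes, which fasten epithelial cells to the basement membrane.

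Marker levels of other cell types were read beside these results. The summed TPM of 5 squamous markers was 33.2 to 44.7 in the HCT116 libraries, 49.2 to 60.8 in UF1hypo shScr and 143 to 176 in UF1hypo shUHRF1. On knockdown in UF1hypo, where CLDN6 rose, KRT5, KRT10 and KRT14 were called higher, while TP63 stayed below 1 and KRT1, a keratin of differentiated epidermis, was listed at 0 in all libraries. KRT8, KRT18 and KRT19 were called higher in UF1hypo shScr than in HCT116 shScr, the comparison in which CLDN4 was higher. Of 6 leukocyte markers 5 never exceeded a TPM of 1. The exception was CD68, also a lysosomal gene, and the summed list came to 13.2 and 14.4 in HCT116 shScr and 40.6 and 42.8 in the 2 UF1hypo shScr libraries, against 78.6 and 109 with shUHRF1 in UF1hypo. The 5 endothelial markers summed to at most 0.733, and of 6 fibroblast markers 5 never exceeded 1. The exception was COL1A1, with a mean of 25.5 in UF1hypo shScr and 51.6 in UF1hypo shUHRF1. The part of these markers in the junction results was not tested.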

How the data were processed

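RNA was sequenced from 8 libraries, 2 in each of 4 groups. After trimming by fastp, the authors used HISAT2 2.0.4 for alignment (GRCh38) and StringTie 2.1.4 for abundance per gene, per the study's methods and the submitters' processing notes. The deposited tables give coverage, FPKM and TPM per gene and hold no read counts, so count models were not run. TPM values as deposited by the authors were the main unit. FPKM values as deposited by the authors entered 1 alternative, and deposited coverage (mean depth per base) divided by FPKM gave the aligned bases of each library. The depth limits the precision of genes near a TPM of 1, and no counting interval can be given.

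Records of 1 gene identifier were summed. Of 60649 identifiers 60507 matched GENCODE, and 19960 were protein-coding. Differences were tested with limma 3.58.1 (R 4.3.3) on log2(TPM + 1), with 4 group terms over all 8 libraries, 4 residual degrees of freedom and a variance trend. A gene was tested where any library of the comparison exceeded a TPM of 1, and p-values were adjusted by Benjamini-Hochberg over all of them. The fit was tested on simulated data. Comparisons were shUHRF1 against shScr in each line, the difference of those effects, and UF1hypo shScr against HCT116 shScr.

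The member rule reads gene names only, but these gene families and the gene lists were chosen with earlier results of these data known. Genes named were every member called in any comparison, the 2 most abundant of each family, members with an adjusted p below 0.05 at smaller folds, and at most 8 called genes of the context list by size. Further members and genes were named after their values were seen. Some members and context genes count in the totals but are not reported here. Alternatives were another pseudocount (0.1), no TPM filter, all annotated genes, FPKM, other scalings, a correction for GC content and length in 10 bins of each, library weights, no trend, the largest record per gene, a replicate block, the libraries of a comparison alone, and each library left out.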

Additional observations from a re-analysis of the deposited data

Results flagged for a closer look

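The effect of UHRF1 knockdown differed between the lines, by a test of the difference itself in limma, for CLDN6 (3.92 on the log2 scale, UF1hypo minus HCT116) and, among the context genes, for LAMB3 (1.83) and CDH1 (1.14), the last named because of this difference. It also differed for TNFRSF12A (1.07), which overlaps CLDN6. CDH1, which encodes E-cadherin, had a TPM of 58.7 and 52.8 in the 2 UF1hypo shScr libraries, against 102 and 112 after knockdown, against 42.3 and 42.7 in HCT116 shScr and 37.9 and 35.4 in HCT116 shUHRF1.

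For 5 further junction genes of the 27 tested for the difference, both knockdown libraries lay above both shScr libraries in UF1hypo and below them in HCT116, while the tested difference was not called by limma: CLDN9 by 1.29 (adjusted p = 0.221), CLDN23 by 1.13 (adjusted p = 0.0969), PKP2, a plakophilin, by 0.77 (adjusted p = 0.185), CLDN7 by 0.73 (adjusted p = 0.0525) and JUP by 0.68 (adjusted p = 0.155). These 5 are 18.5% of the 27, and 6.94% of all 13781 genes tested showed that pattern. In the context list it was shown by 6 of 39 genes, and the difference was not called for 3 of these, CDH3, CRB3 and CTNNA1. CLDN9 counts among the 5 junction genes only by a narrow gap near 0 in HCT116. Its lower shScr library there had a TPM of 0.135, and its higher knockdown library 0.116. The CLDN9 difference was 0.72 without HCT116 shScr replicate 1 and 1.87 without HCT116 shScr replicate 2.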

How the results depend on the processing

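Calls among the junction genes rested on 2 libraries a group and no read counts. CLDN6 was called in all 16 alternative fits of the knockdown in UF1hypo and in all 19 of the difference between the lines, and DSC3 in all 16 between the shScr groups. CLDN4 and GJB5 were each called in 13 of 16, CLDN9 in 8 and DSC2 in 6. On knockdown in UF1hypo, where 1 member was called, the count was 2 with a pseudocount of 0.1 (CLDN23 added) and 2 when GC content and length were corrected for (TJP3 added, lower), which also gave 2 for the difference between the lines. Leaving out each library in turn gave counts of 1 to 3 on knockdown in UF1hypo, 1 to 3 for the difference, 0 to 0 in HCT116 and 2 to 4 between the shScr groups, where 6 were called. Without UF1hypo shUHRF1 replicate 2 (CLDN23 and GJB6 added) the count was 3 on knockdown and 3 for the difference, and without replicate 1 (TJP3 added) it was 2 on knockdown. Of 1022 values under the alternatives for the 16 members that the naming rule covers, which leaves out TJP3 and GJB6, 950 kept their direction and side of the threshold, 24 lost the call, 3 gained it and 45 changed sign where neither fit called them; no called value changed sign. With the replicate number as a block 4 members were called between the shScr groups and 1 on knockdown in UF1hypo; CLDN9 and DSC2 lost the call (limma adjusted p = 0.0747 and 0.0856). Same-numbered libraries did not deviate together (correlations of -0.402 to 0.0547). These correlations cannot decide whether the numbers pair the libraries. Replicates in UF1hypo also differed along GC content, in opposite directions (Spearman's rho -0.508 with shScr and 0.814 with shUHRF1). Scaling moved the median fold of all genes by over 0.1 only for the difference between the lines (-0.12 with quantile normalization, -0.11 with the GC correction). The causes were not tested.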
